A study of Mus musculus with 2 samples.

Results

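Transcripts of 9 serotonin receptor genes were described in the mouse trigeminal ganglion, the cluster of sensory neurons that serves the face and the meninges. The genes were Htr1a, Htr1b, Htr1d, Htr1f, Htr2a, Htr2b, Htr3a, Htr3b and Htr7, chosen by name as a receptor family that includes the targets of triptans, and they are 9 of the 39098 genes listed. The study asked how cells of the ganglion respond to inflammation of the face. Single-cell RNA-seq on the BD Rhapsody system gave 1 library from the control group and 1 from the CFA group. Both came from the right trigeminal ganglion of male C57BL/6 mice aged 5 to 8 weeks. The CFA group received 20 µL of complete Freund's adjuvant, an emulsion that causes lasting inflammation, in the right vibrissal pad, and tissue was taken a week later. The labels call the control group untreated, whereas the study's methods describe a saline injection. No genetic change was made in either group. How many mice went into each library is not stated, so the libraries compare 2 pools of cells, no test between conditions was possible, and each interval below is a 95% interval that covers counting error only.

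Serotonin receptors are, with 1 exception, G protein-coupled receptors. Members of the 5-HT1 group act mainly through inhibitory G proteins and lower transmitter release, those of the 5-HT2 group act through Gq, and the 5-HT7 receptor acts through Gs. The exception is the 5-HT3 receptor, a cation channel built of several subunits that excites sensory neurons. Triptans, drugs used to stop a migraine attack, are agonists of the 5-HT1B and 5-HT1D receptors and to a varying degree of the 5-HT1F receptor. In the trigeminal system they are known to lower the release of CGRP, the vasodilator peptide encoded by Calca.

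The control library held 7298 cells and 48916096 UMIs (unique molecular identifiers, each counting 1 captured transcript), and the CFA library held 4080 cells and 22096268 UMIs. Median depth was 1365 and 1124 UMIs per cell, and 27 barcodes occurred in both libraries. After filtering, 6695 and 3661 cells remained. Neurons were the clusters with high Tubb3, Snap25, Uchl1, Stmn2 and Rbfox3, and there were 838 control and 435 CFA neurons, with medians of 43199 and 34757 UMIs. Where values are given as pairs, the control library comes before the CFA library. Each neuron was then placed in a class by raw UMIs of a few markers, none of which is a serotonin receptor: itch neurons with Nppb and Sst (12 control and 11 CFA neurons), Mrgpra3 itch neurons (45 and 13), Mrgprd nonpeptidergic nociceptors (163 and 62), C-fibre low-threshold mechanoreceptors or C-LTMRs (72 and 46), Trpm8 cold-sensing neurons (49 and 25), A-fibre neurons with high Nefh (19 and 10), Nefh+ peptidergic neurons (19 and 7), Sstr2+ peptidergic C neurons (95 and 63) and Sstr2- peptidergic C neurons (251 and 121). Another 113 and 77 neurons passed no gate, and their median depth was lower, at 6201 and 7530 UMIs. Levels are CPM, the UMIs of a gene per 1000000 UMIs of its class, and they are compared between classes or libraries for 1 gene at a time.

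Serotonin receptor transcripts lay in neurons. Of the 9 genes, 9 had a UMI among control cells and 8 among CFA cells. Leaving out Htr2b, between 91.4% and 100% of each member's UMIs were in neurons, which held 80.2% and 77.7% of all UMIs. Satellite glia, which wrap neuron cell bodies, served as a measure of free RNA: among 1237 control and 507 CFA satellite glia, Htr1b was seen in 1 and 1 cells, Htr1d in 1 and 1, Htr1f in 1 and 0, and Htr3a in 2 and 4. These shares were at most 0.789%, at a median depth of 1892 and 1680 UMIs against 43199 and 34757 in neurons, so a share in glia and a share in neurons were not measured at equal depth. Myelinating Schwann cells also held few, with 4 and 1 Htr1b UMIs in 2116 and 1333 cells.

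**Figure D1:**
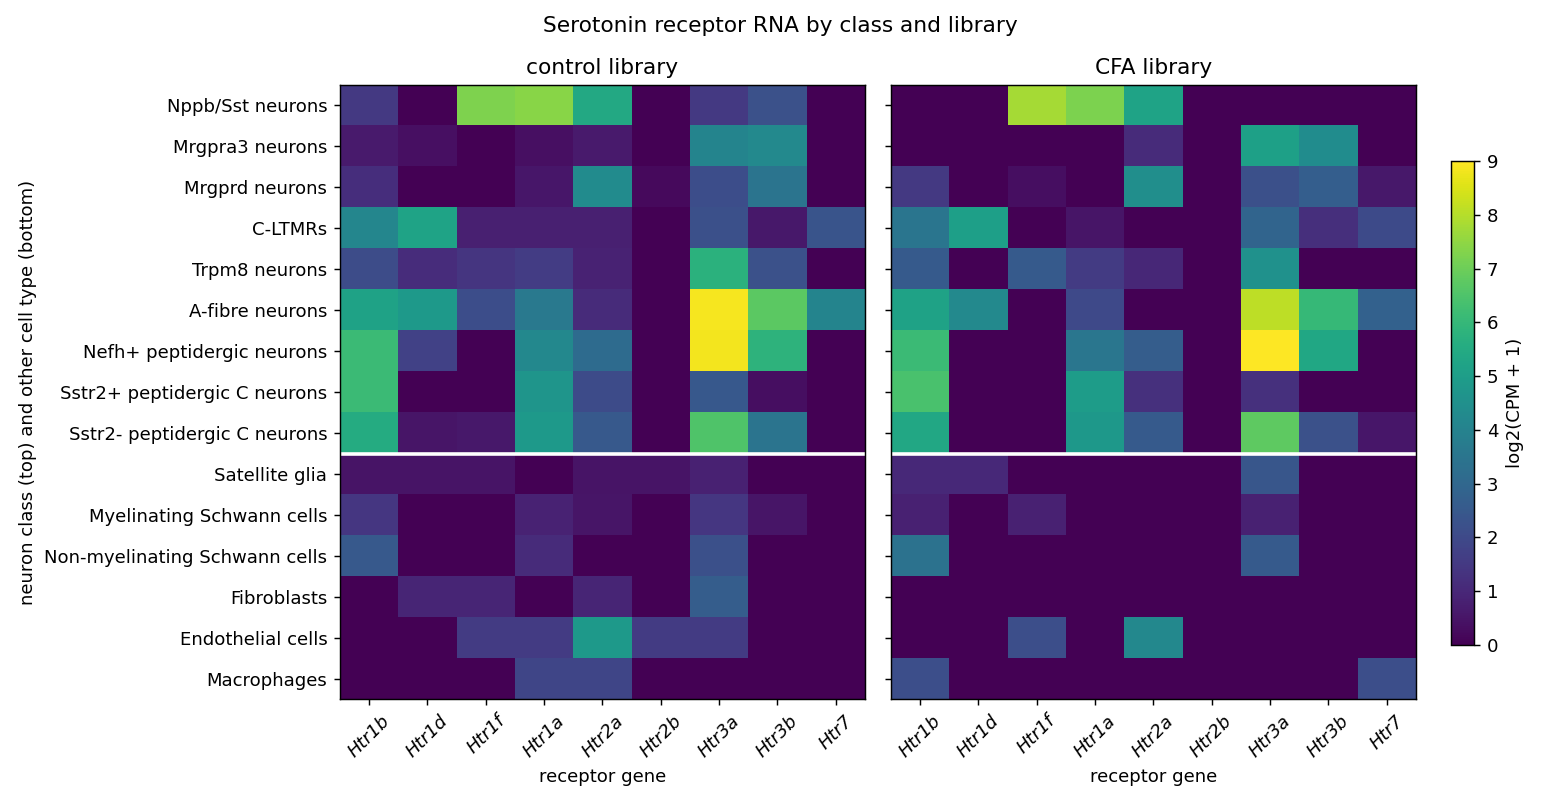
Heat map of log2(CPM + 1) of each serotonin receptor gene (columns) in 9 neuron classes (above the white line) and some non-neuronal types (below it), with the control library on the left and the CFA library on the right. Nppb/Sst neurons were bright for Htr1f and Htr1a, C-LTMRs for Htr1d, the peptidergic classes for Htr1b, and A-fibre and Nefh+ peptidergic neurons for Htr3a in both libraries.

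Each of the 3 triptan targets was highest in its own neuron classes. The starts of these genes are shown as the bases just upstream of each, since the 3 receptors are alike in function and unlike in where their transcripts lay. The bases are from RefSeq's GRCm38.p6 table, 5′ to 3′ on the gene's strand, and capitals mark matches to CCAAT (either strand) or GGGCGG. Of 250 bases searched before each start shown, on both strands for the TATA box (TATAAA), the letters CCAAT, the Sp1 box (GGGCGG), the Runx core (TGTGGT), a homeobox core (TAATTA) and an E-box (CAGCTG), Htr1b held 2 CCAAT matches and Htr1d held 1 CCAAT and 1 GGGCGG match, whereas Htr1f held no match to these letters. The table gives a further Htr1d start, which lies inside the annotated gene and is not shown, and its window held 3 GGGCGG matches. CCAAT occurs in 33.9% and GGGCGG in 32.7% of all 32851 windows searched in the same way. Htr1b lies on chromosome 9 (minus strand), Htr1d on chromosome 4 (plus strand) and Htr1f on chromosome 16 (minus strand), and each has a single coding exon. The 3 stretches are chr9:81633833-81634082 for Htr1b, chr4:136423274-136423523 for Htr1d and chr16:65105855-65106034 for Htr1f, where the 180 bases outside the annotated gene are given.
Htr1b: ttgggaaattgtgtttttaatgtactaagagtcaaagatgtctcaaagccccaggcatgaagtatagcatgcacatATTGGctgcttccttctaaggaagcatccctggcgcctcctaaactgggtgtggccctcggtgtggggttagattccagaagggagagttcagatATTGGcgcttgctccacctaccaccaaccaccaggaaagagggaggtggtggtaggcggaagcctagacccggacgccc
Htr1d: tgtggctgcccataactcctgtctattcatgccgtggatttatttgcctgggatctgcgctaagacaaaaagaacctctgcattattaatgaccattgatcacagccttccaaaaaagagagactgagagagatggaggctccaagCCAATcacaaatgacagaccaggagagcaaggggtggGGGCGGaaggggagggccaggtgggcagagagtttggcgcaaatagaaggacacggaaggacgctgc
Htr1f: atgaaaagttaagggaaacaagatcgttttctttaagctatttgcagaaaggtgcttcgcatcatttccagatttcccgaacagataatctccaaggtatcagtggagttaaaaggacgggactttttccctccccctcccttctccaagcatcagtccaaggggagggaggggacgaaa

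Htr1b, which encodes the inhibitory 5-HT1B receptor on nerve endings and vessels, was the most widely seen triptan target. All neurons held 951 and 481 UMIs. Sstr2+ peptidergic C neurons were at 69.1 (60.9 to 78.0) and 85.0 CPM (73.3 to 98.0), and 68.8 and 68.7 CPM were measured in Nefh+ peptidergic neurons. These classes did not differ beyond their counting intervals in either library. In the CFA library 1 of the 7 Nefh+ peptidergic neurons held 23 of their 39 UMIs, and without it the class was at 33.2 CPM (19.0 to 53.9). Sstr2- peptidergic C neurons followed at 45.2 CPM (41.0 to 49.6) and 40.7 CPM (34.8 to 47.2), below Nefh+ peptidergic neurons of the control library by 0.61 (0.26 to 0.94) on the log2 scale. In the CFA library the difference was 0.76 (0.22 to 1.26) with that 1 neuron, and without it the order of the classes turned. A-fibre neurons at 35.1 and 35.5 CPM (22.5 CPM without the highest CFA neuron) could not be told from Sstr2- neurons, and C-LTMRs were lower at 16.3 and 10.4 CPM. Htr1b was low in Trpm8 (3.24 and 4.90 CPM) and Mrgprd neurons (1.27 and 1.80 CPM). Within Sstr2+ neurons the transcripts were spread over many cells, since 17 of 95 control and 8 of 63 CFA neurons had none and the median was 2 UMIs in both libraries. After each neuron was thinned to 5000 UMIs, 24.2% of control and 33.3% of CFA Sstr2+ neurons still held Htr1b. An antisense gene, D430036J16Rik, overlaps Htr1b, and reads of the pair cannot be told apart without strand.

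Htr1d, which encodes the 5-HT1D receptor, was high in C-LTMRs, unmyelinated neurons that respond to gentle stroking. The 72 control C-LTMRs held 150 UMIs, or 36.0 CPM (30.5 to 42.2), and the 46 CFA C-LTMRs held 75 UMIs, or 32.6 CPM (25.6 to 40.9). A UMI was present in 52 of 72 (72.2%) and 34 of 46 (73.9%) of them. C-LTMRs held 78.9% and 89.3% of the Htr1d UMIs of neurons. A-fibre neurons were not apart from C-LTMRs, at 28.3 CPM (25 UMIs) and 17.7 CPM (6 UMIs). In the CFA library 5 of those 6 UMIs were in 1 neuron, and without it the level was 3.68 CPM. In the control library Nefh+ peptidergic neurons were the next gated class at 2.35 CPM (3 UMIs), and in the CFA library no other gated class held a Htr1d UMI. Neurons that passed no gate held 4 and 3 UMIs.

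Htr1f, which encodes the 5-HT1F receptor, was high in Nppb/Sst neurons, small C-fibre neurons known for itch that express the natriuretic peptide Nppb and somatostatin. The 12 control neurons held 2 to 17 UMIs each with a median of 6.5, and the 11 CFA neurons held 0 to 22 with a median of 9. Every control neuron of this class and all but 1 CFA neuron had Htr1f, and the ranges of the libraries overlapped. The level was 150.6 (120 to 187) and 219 CPM (182 to 262). These few cells held 81.2% and 93.8% of all Htr1f UMIs of neurons. Of the gated classes, A-fibre neurons came next in the control library (3.40 CPM, 3 UMIs) and Trpm8 neurons in the CFA library (4.90 CPM, 5 UMIs). Neurons that passed no gate held 4 and 2 UMIs.

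A neuron was called positive for a triptan target where it held at least 2 UMIs of Htr1b, Htr1d or Htr1f. By this count 254 of 838 control neurons (30.3%) and 139 of 435 CFA neurons (32.0%) were positive. Pairs of these genes were few: Htr1b and Htr1d met in 6 control and 1 CFA neurons, Htr1d and Htr1f in 1 and 0, and Htr1b and Htr1f in 0 and 0. Htr1d was in 2.96% and 0.91% of Htr1b neurons, against 5.83% and 5.54% of the others. C-LTMRs held 5 of the control pairs and the 1 CFA pair of Htr1b and Htr1d. In that class 14 of 72 and 3 of 46 neurons had Htr1b, and 37 and 18 had Htr1d. Htr1f was in 2.33% and 0% of Htr1d neurons, against 1.76% and 2.64% of the others. Outside Htr1b neurons the share with Htr1f was 2.36% and 3.39%. These shares pool all classes, and the part of the mix of classes in them was not tested. In C-LTMRs 63.9% and 43.5% of neurons were positive, and in Nppb/Sst neurons 12 of 12 and 10 of 11, by Htr1f alone. Mrgpra3 neurons had 0 of 45 and 0 of 13, which allow shares of up to 7.87% and 24.7% (exact binomial), and Mrgprd neurons had 0 of 163 and 1 of 62.

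**Figure D2:**
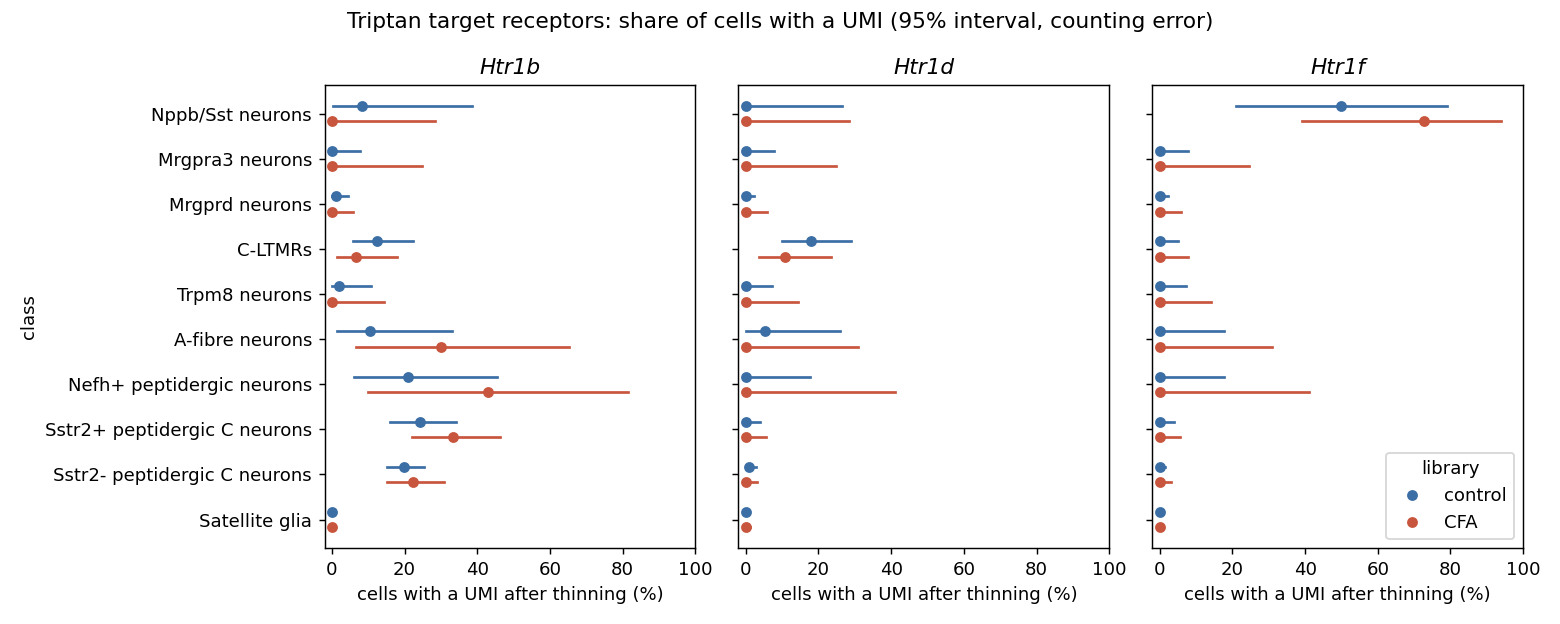
Percentage of cells of each class with a UMI of Htr1b, Htr1d or Htr1f after thinning (neurons to 5000 UMIs, satellite glia to 500), as points for the control (blue) and CFA (red) libraries with 95% Clopper-Pearson intervals as bars. Htr1b was found in 24.2% and 33.3% of Sstr2+ peptidergic C neurons, Htr1d in 18.1% and 10.9% of C-LTMRs and Htr1f in 6 of 12 and 8 of 11 Nppb/Sst neurons, and the intervals of the libraries overlap.

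Coexpression with Calca followed the classes. Neurons with at least 100 Calca UMIs were called Calca-high, which the peptidergic classes are by their gate, and they were 456 of 838 control and 214 of 435 CFA neurons. A-fibre neurons and neurons that passed no gate are Calca-low by definition. Of neurons with a Htr1b UMI, 260 of 333 (78.1%) and 133 of 180 (73.9%) were Calca-high. For Htr1d the counts were 9 of 74 (12.2%, 5.72 to 21.8%) and 0 of 39 (up to 9.03%, exact binomial). Each of those 9 neurons held a single Htr1d UMI, and with at least 2 UMIs required none of 43 control and 19 CFA neurons was Calca-high. Of neurons with Htr1f, 3 of 27 (11.1%, 2.35 to 29.2%) and 0 of 17 were Calca-high. Viewed from the peptide, a Htr1d UMI was present in 1.97% and 0% of Calca-high neurons but in 17.0% and 17.7% of Calca-low neurons. The median depth of Htr1d neurons was 58065 and 50718 UMIs, against 40332 and 33679 in neurons without it.

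Htr3a behaved otherwise. Of neurons with a Htr3a UMI, 157 of 219 (71.7%, 65.2 to 77.6%) control and 65 of 106 (61.3%, 51.4 to 70.6%) CFA neurons were Calca-high. Htr3a was present in 34.4% of control and 30.4% of CFA Calca-high neurons and in 16.2% and 18.6% of Calca-low neurons. With neurons thinned to 5000 UMIs for Htr3a these shares were 15.8% against 8.66% in the control library. In the CFA library they were 13.1% (8.87 to 18.4%) against 11.5% (7.32 to 16.8%), where the intervals overlap. The Calca gate stayed on unthinned UMIs, so the split into Calca-high and Calca-low neurons still depended on depth. Of thinned Htr3a neurons 71.3% and 56.0% were Calca-high, against 57.6% and 52.7% of all thinned neurons. Where neurons were ordered by Calca UMIs, the level of Htr3a was 31.8 and 32.7 CPM below 10 Calca UMIs and 94.2 and 120 CPM from 300 on. Between these it was 41.6 and 25.5 CPM at 10 to 99 and 36.0 and 46.8 CPM at 100 to 299, so it did not rise evenly. Over the same outer ranges Htr1d went from 19.9 and 19.1 CPM to 0.28 and 0 CPM. As CPM, the Calca in C-LTMRs and Nppb/Sst neurons was not above that of glia. Below the gate it was 180.7 and 53.5 CPM in C-LTMRs and 178 and 45.6 CPM in Nppb/Sst neurons, against 234 and 94.1 CPM in satellite glia. Glia were shallower, at a median of 1892 and 1680 UMIs against 54353 and 48900 in C-LTMRs, so equal CPM means more Calca UMIs per neuron. The median was 9 and 2 Calca UMIs in C-LTMRs and 7.5 and 2 in Nppb/Sst neurons. Whether these UMIs are free RNA was not tested. 1 control C-LTMR held 1318 Calca UMIs and no Htr1d.

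**Figure D3:**
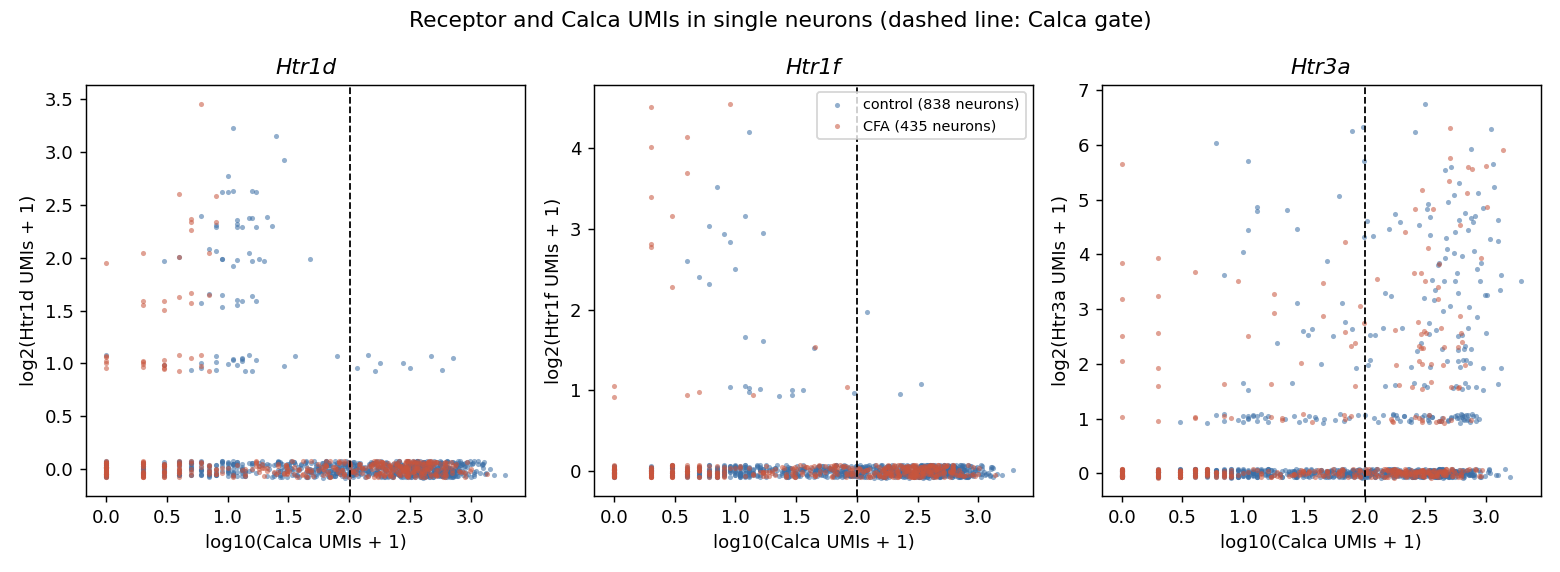
Calca UMIs (horizontal, log10 of UMIs + 1) against UMIs of Htr1d, Htr1f or Htr3a (vertical, log2 of UMIs + 1, slightly scattered) in single neurons of the control (blue) and CFA (red) libraries, with the Calca gate at 100 UMIs as a dashed line. Neurons with 2 or more Htr1d UMIs lie left of the line, whereas 157 of 219 control and 65 of 106 CFA neurons with Htr3a lie on its right.

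Htr1a, which encodes an inhibitory receptor best known from serotonin neurons of the brainstem, had its highest level in the same class as Htr1f, while most of its transcripts lay elsewhere. Nppb/Sst neurons held 17.6% and 29.2% of the Htr1a UMIs of neurons, and Sstr2- peptidergic C neurons, being many, held 52.0% and 41.3%. Control Nppb/Sst neurons held 3 to 22 UMIs each and CFA ones 0 to 12, with medians of 5 and 8. The level was 167 CPM (135 to 205) and 150 CPM (119 to 186), from 91 and 82 UMIs. Sstr2- (27.4 and 27.1 CPM) and Sstr2+ peptidergic C neurons (24.7 and 30.1 CPM) came next and were not apart from each other. Of neurons with at least 2 Htr1f UMIs, 12 of 15 control and 10 of 11 CFA neurons also had at least 2 of Htr1a. Of Htr1a neurons so counted, 40.6% and 43.1% had Htr1b, against 22.0% and 22.6% of the other neurons, and none had Htr1d.

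Htr2a, which encodes the Gq-coupled 5-HT2A receptor, had its highest level in the same Nppb/Sst neurons, at 42.3 CPM (23 UMIs) and 36.5 CPM (20 UMIs). In the CFA library their lead over Mrgprd neurons was narrow, at 0.81 (0.03 to 1.53) on the log2 scale. Without the highest CFA neuron the level was 30.9 CPM (17.3 to 51.0), an interval that holds the 20.8 CPM of CFA Mrgprd neurons. Mrgprd neurons followed at 19.2 and 20.8 CPM and, being many, held 64.8% and 59.6% of the neurons' Htr2a UMIs. Of all Mrgprd neurons, 104 of 163 and 41 of 62 had a UMI, with at most 9 and 4 UMIs in any one. The peptidergic classes were lower, with Sstr2- neurons at 4.78 and 4.91 CPM. Outside neurons Htr2a was seen in endothelial cells, with 14 UMIs in 14 of 294 control cells and 5 UMIs in 5 of 163 CFA cells (27.6 CPM, 15.1 to 46.3, and 17.6 CPM, 5.71 to 41.0). Mural cells, the contractile cells of vessels, held 0 in 68 and 23 cells. Their few UMIs allow levels of up to 36.1 and 116.7 CPM (exact Poisson), so they cannot be told from endothelial cells. Htr2b had 4 UMIs in the control library, 2 of them in Mrgprd neurons, and none in the CFA library. It lies inside Psmd1, a gene on the other strand.

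Htr3a, the subunit that every 5-HT3 channel needs, had its highest levels in A-fibre and Nefh+ peptidergic neurons, though not in every class with Nefh, a neurofilament of large fibres: Trpm8 neurons had 1371 and 1464 CPM of Nefh, against 1171 and 1746 in A-fibre and 498 and 642.5 in Nefh+ peptidergic neurons. A-fibre neurons were at 469 CPM (414 UMIs) and 272 CPM (92 UMIs), and Nefh+ peptidergic neurons at 454 CPM (580 UMIs) and 502 CPM (285 UMIs). The classes were not apart in the control library but were in the CFA library, where 1 A-fibre neuron held 52 of the 92 UMIs and the level without it was 141 CPM. All 7 CFA Nefh+ peptidergic neurons had Htr3a, with 11 to 81 UMIs, whereas the 19 control neurons held 0 to 103 and 3 of them had none. Sstr2- peptidergic C neurons were at 91.8 CPM (85.9 to 98.0) and 107 CPM (97.6 to 118), Trpm8 neurons at 53.1 and 22.5 CPM and Mrgpra3 neurons at 15.7 and 33.3 CPM (14.8 CPM without the CFA neuron with the most). The shallower neurons that passed no gate ranked above Sstr2- neurons and held 5.94% and 10.3% of the neurons' Htr3a UMIs. They were 10 of 135 control and 17 of 77 CFA neurons with at least 2 Htr3a UMIs. All of them lie below the Calca gate by definition, since a neuron above it has passed a gate. Sstr2+ peptidergic C neurons held few, with 17 UMIs in 95 neurons (4.52 CPM) and 3 in 63 (1.35 CPM), so that Htr3a differed between the peptidergic C classes in the direction opposite to Htr1b. A gene on the other strand, Gm32335, overlaps Htr3a.

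Htr3a was not even within the Sstr2- class. A UMI was present in 102 of 251 control and 50 of 121 CFA neurons, and the 25 and 12 neurons with the most held 67.1% and 74.5% of the UMIs. Sstr2- neurons with at least 2 Htr3a UMIs had lower Tac1, the gene of substance P, than those with none, at 5805 against 8063 CPM among control and 4885 against 7335 CPM among CFA neurons. Gfra3, a receptor for artemin, was likewise lower (537 against 694 and 393 against 648 CPM). The sodium channel subunit Scn4b was higher (20.0 against 3.48 and 15.1 against 2.75 CPM). Calca itself differed less, at 11650 against 12060 and 9728 against 11140 CPM. The Htr3a neurons were deeper in both libraries, with medians of 43239 against 31362 and 40944 against 28246 UMIs, and the part of depth in these differences was not tested.

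Htr3b is a subunit that joins Htr3a in mixed channels and does not form one alone. Of the genes compared, Htr3a had the pattern most like that of Htr3b (r = 0.869 and 0.856). Htr3b could not be listed for Htr3a, since it had 123 UMIs in CFA neurons and compared genes needed at least 200. The smaller r of the pair, 0.856, was above that of Trappc3l (0.838), the first gene listed for Htr3a. A-fibre neurons were at 105 and 65.0 CPM of Htr3b, Nefh+ peptidergic neurons at 55.5 and 40.5 CPM, and Mrgpra3 neurons at 17.7 and 19.5 CPM. The CFA values rest on few cells: without the neuron with the most UMIs of each class they were 28.3 CPM in A-fibre neurons (where it held 14 of 22 UMIs), 26.6 CPM in Nefh+ peptidergic and 11.9 CPM in Mrgpra3 neurons. Of neurons with at least 2 Htr3b UMIs, 47 of 75 (62.7%) control and 17 of 23 (73.9%) CFA neurons had at least 2 of Htr3a. Of neurons with at least 2 Htr3a UMIs, 34.8% and 22.1% had at least 2 of Htr3b, against 3.98% and 1.68% of the other neurons. Sstr2- peptidergic C neurons, which held the most Htr3a UMIs of any class, were at 10.1 and 3.74 CPM of Htr3b (99 and 16 UMIs). In Mrgprd neurons Htr3b had 111 and 21 UMIs (10.1 and 5.39 CPM), present in 59 of 163 and 14 of 62 neurons. Htr3a had 37 and 14 UMIs there, in 16 and 4 neurons, and 1 neuron of each library held 15 and 11 of them. The genes are neighbours on chromosome 9, on the minus strand with 23909 bases between them, Htr3a at chr9:48899213-48911099 and Htr3b at chr9:48935008-48964990 in GRCm38.

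**Figure D4:**
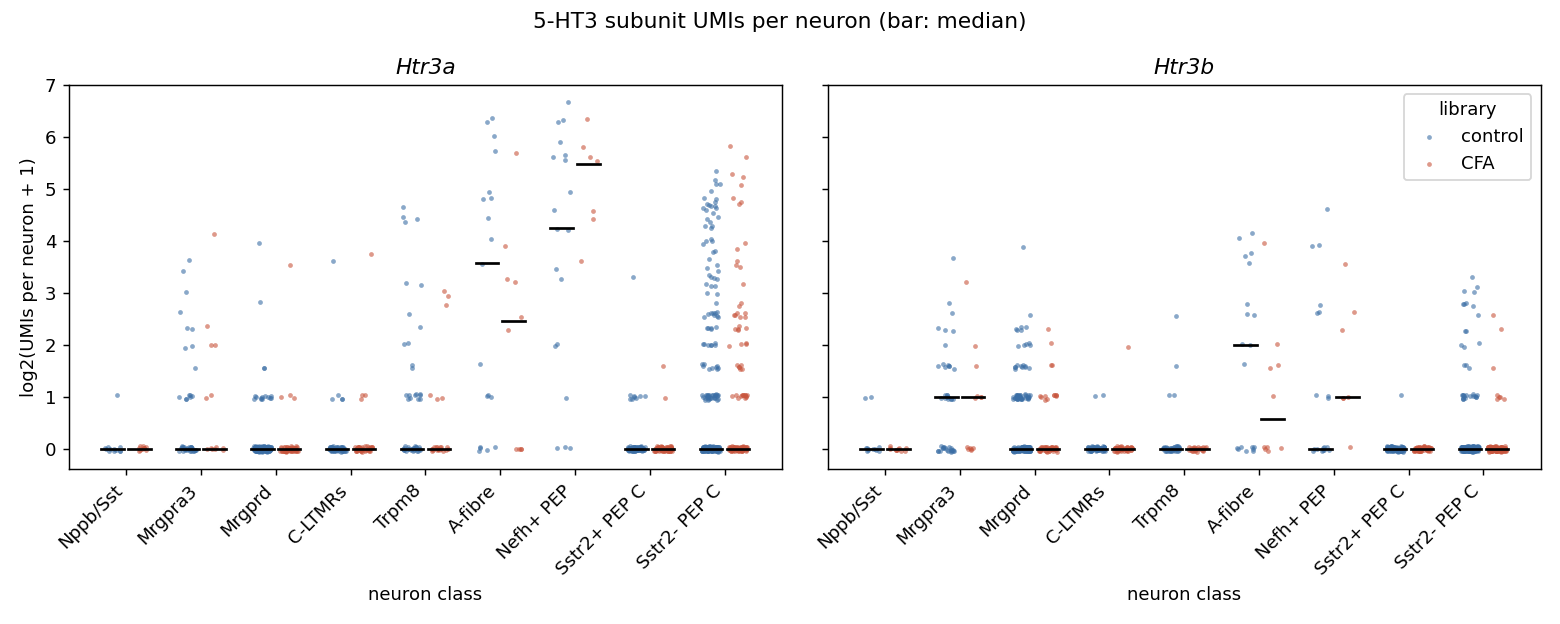
UMIs of Htr3a (left) and Htr3b (right) in single neurons by class, as log2 of UMIs + 1 with slight scatter, for the control (blue) and CFA (red) libraries, with the median as a black bar. Htr3a medians were 11 and 4.5 UMIs in A-fibre neurons and 18 and 44 in Nefh+ peptidergic (PEP) neurons, and 0 in the other classes, while single Sstr2- peptidergic C neurons reached 40 and 55.

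Htr7, which encodes the Gs-coupled 5-HT7 receptor, was sparse, with 32 control and 13 CFA UMIs in all neurons. C-LTMRs held 17 and 7 of them (4.08 and 3.04 CPM) and A-fibre neurons 14 and 2 (15.9 and 5.91 CPM). Of 7 control neurons with at least 2 Htr7 UMIs, 6 also had at least 2 of Htr1d, and in the CFA library 0 of 2. Among all neurons, 43 of 838 and 19 of 435 had at least 2 Htr1d UMIs. Outside neurons there were 3 UMIs in the control cluster of lymphocytes and 1 in CFA macrophages.

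Most neurons held few kinds of receptor. At 2 or more UMIs of a gene, 45.4% of control and 46.9% of CFA neurons had none of the members, and 5.13% and 5.29% had 3 or more. In Nppb/Sst neurons 3 or more were present in 5 of 12 and 6 of 11. The same held for 9 of 19 and 2 of 10 A-fibre neurons and for 7 of 19 and 3 of 7 Nefh+ peptidergic neurons. These counts depend on depth: of the shallower neurons that passed no gate, 90 of 113 and 55 of 77 had none. Htr1b and Htr3a met in 49 control and 31 CFA neurons, which is 24.1% and 28.2% of Htr1b neurons and 36.3% and 40.3% of Htr3a neurons. Of the neurons not counted for Htr1b, 13.54% and 14.15% had Htr3a.

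The 5 other serotonin receptor genes showed further classes. Htr4, a Gs-coupled receptor, was high in Mrgprd neurons (291 and 102 UMIs, 26.3 and 26.2 CPM), which also held Htr2a. Htr5b was high in C-LTMRs (135 and 79 UMIs, 32.4 and 34.3 CPM), the class of Htr1d, and lower in Mrgprd neurons at 9.78 and 16.2 CPM. Htr5a was low throughout, with 4.76 and 4.58 CPM in all neurons, and Htr2c (5 and 5 UMIs) and Htr6 (14 and 7 UMIs) were near the limit of detection.

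Genes that make or clear serotonin were mostly at low levels. Neurons held 34 and 21 UMIs of Tph2, the neuronal form of the rate-limiting enzyme, and non-neuronal cells held none. Slc6a4, the serotonin transporter, had 2 and 5 UMIs in neurons and 4 and 3 elsewhere. Maoa, which breaks serotonin down, was high in endothelial cells (453 and 503 CPM) against 87.3 and 95.9 CPM in all neurons. Of the gated neuron classes C-LTMRs had the most Maoa, at 240.7 and 264.3 CPM. Ddc, which makes serotonin and dopamine from their precursors, was seen in oligodendrocyte-like cells (56 and 52 UMIs) and endothelial cells (38 and 44 UMIs). Mast cells, which store histamine and in mice serotonin, were few: 2 control and 1 CFA cells passed the mast cell markers, all in the cluster of lymphocytes, and they held 2 and 4 UMIs of Tph1, the other form of that enzyme, and 16 and 16 of Hdc. Of the other markers of that list, Cma1, Tpsb2, Cpa3 and Mcpt4, non-neuronal cells held 56 to 107 UMIs each in the control and 21 to 54 in the CFA library. Of the platelet markers, Pf4, which some macrophages express, had 279 of its 289 control and all 196 of its CFA non-neuronal UMIs in macrophages, and Ppbp had 1 and 7 UMIs. Ric3, a chaperone of 5-HT3 channels, was at 45.1 and 45.5 CPM in neurons against 15.9 and 14.7 CPM in other cells. Of the inhibitory G protein subunits, Gnao1 was at 1818 and 1904 CPM in neurons against 158 and 236 CPM elsewhere, and Gnaz at 95.8 and 128 against 16.7 and 15.5 CPM.

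Genes with a pattern like that of a member were sought across 9 neuron classes and 11 non-neuronal types, by Pearson's r of log2(CPM + 1) among 8708 genes, taking the smaller r of the libraries. The points share their library, and classes were gated on some of the genes found. For Htr1f they were Nppb (r = 0.92 and 0.88), Sst and Il31ra, where Nppb is the gate itself. For Htr1a they were Npy2r (0.88 and 0.92), a neuropeptide Y receptor, and Gpr139. For Htr1b they were Rgs20 (0.83 and 0.87), Syt16 and Tac1. For Htr2a they were Far2 (0.69 and 0.79), Lifr and Cmtm8. For Htr3a they were Trappc3l (0.87 and 0.84), D930028M14Rik and Arpp21, and for Htr3b they were Htr3a (0.87 and 0.86), Trappc3l and Kcnj3. Htr1d had 84 UMIs in CFA neurons, below the minimum set for this comparison, and was added after its values were seen: its nearest genes were Cbln2 (0.93 and 0.95), C1ql4, itself part of the C-LTMR gate, and Spink2.

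Levels in all neurons were then set side by side for the CFA and control libraries, to address how facial inflammation bears on these receptors. Of 14510 genes with at least 50 UMIs over both libraries, 9.04% differed by more than 1.5-fold in either direction. Of the 7 members with that many UMIs, 2 did, Htr1f and Htr3b, and the median log2 ratio of the 7 was 0.04 beside -0.002 for all genes. Htr1f was at 2.61 and 7.61 CPM, which is 1.54 (1.16 to 1.93) as a log2 ratio of CFA over control. However, Nppb/Sst neurons were 12 of 838 in the control and 11 of 435 in the CFA library. Equal class weights give each class the same weight in both libraries, set by its number of neurons, including neurons that passed no gate. With them the ratio was 0.36. Within Nppb/Sst neurons it was 0.54 (0.12 to 0.96). Htr3b was at 12.1 and 7.31 CPM, a log2 ratio of -0.72 (-1.02 to -0.44), which was -0.30 with equal class weights. By class its ratio was -1.43 in Sstr2- peptidergic C, -0.90 in Mrgprd and -0.70 in A-fibre neurons (-1.77 without the highest neuron of each library), where the intervals exclude 0, and -0.46 (-1.20 to 0.24) in Nefh+ peptidergic and 0.14 (-0.72 to 0.94) in Mrgpra3 neurons. In the shallower neurons that passed no gate, Htr3b was higher in the CFA library, from few UMIs. They held 3.43% and 17.1% of the neurons' Htr3b UMIs. Why the ratio changed with equal class weights was not tested.

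The triptan targets Htr1b and Htr1d stayed within 1.5-fold between the libraries over all neurons. Htr1b was at 24.6 and 28.6 CPM in all neurons, a log2 ratio of 0.22 (0.06 to 0.38), with 0.30 (0.02 to 0.58) in Sstr2+ and -0.15 (-0.41 to 0.11) in Sstr2- peptidergic C neurons. In C-LTMRs its ratio was -0.65 (-1.38 to 0.05), from 16.3 and 10.4 CPM. Htr1d was at 4.91 and 4.99 CPM, a ratio of 0.02 (-0.37 to 0.40), and of -0.14 (-0.56 to 0.27) in C-LTMRs and -0.68 (-2.25 to 0.65) in A-fibre neurons. For Htr1a the ratio was 0.32 (0.11 to 0.53) in all neurons, -0.16 (-0.61 to 0.29) in Nppb/Sst neurons and -0.12 in all neurons with equal class weights. Its direction thus depended on the weights. These also count neurons in place of UMIs, and the part of the mix of classes was not tested. Htr2a had -0.07 (-0.37 to 0.23) and Htr7 -0.10 (-1.15 to 0.87). Of the peptides, Calca was at 5463 and 4750 CPM, a log2 ratio of -0.20, Tac1 was at 3170 and 2764 (-0.20), Calcb at 456 and 350 (-0.38) and Adcyap1, the gene of PACAP, at 787 and 864 CPM (0.14), and none of the 10 receptor partners and G protein subunits passed 1.5-fold. These intervals leave out differences between mice, which a single library per condition cannot show.

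Htr3a in all neurons was at 59.2 and 61.0 CPM, a log2 ratio of 0.04 (-0.07 to 0.15), while single classes went either way. It was lower in CFA A-fibre neurons (-0.79, -1.13 to -0.46) and Trpm8 neurons (-1.24, -1.94 to -0.59) and higher in Mrgpra3 (1.09, 0.39 to 1.76) and Sstr2- peptidergic C neurons (0.22, 0.06 to 0.39). These values hang on few cells and on the gates. Without the neuron with the most UMIs in each library the Mrgpra3 ratio was 0.21 and the A-fibre ratio -1.51, and with all gates doubled the Trpm8, Mrgpra3 and Sstr2- ratios changed sign, to 1.42, -0.095 and -0.037. CFA A-fibre neurons had a median of 20259 UMIs against 47439 in the control library, and the part of depth in these ratios was not tested.

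**Figure D5:**
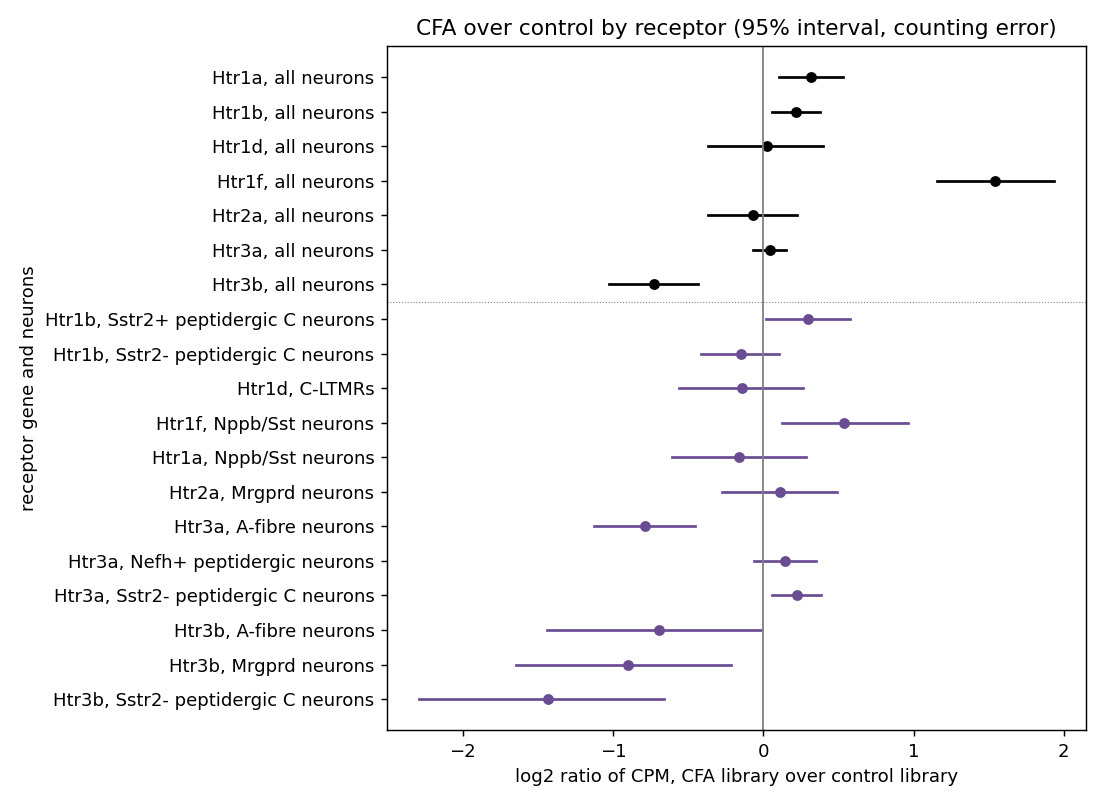
Log2 ratio of CFA over control CPM of 7 members in all neurons (black) and of selected members in single classes (purple), with 95% conditional binomial intervals as bars and a line at 0. Among the ratios in all neurons, Htr1f (1.54) and Htr3b (-0.72) lie farthest from 0, and Htr3a lies below 0 in A-fibre (-0.79) and above 0 in Sstr2- peptidergic C neurons (0.22).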

How the data were processed

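The authors dissociated right trigeminal ganglia, made BD Rhapsody libraries and deposited raw UMI counts per gene and cell, 1 matrix for each library. The labels name fastp and the GRCm38 build without versions, and whether counting used strand is not given in the sources used here. Here, barcodes with under 150 genes or over 25% mitochondrial counts were dropped. Cells were clustered in Seurat 5.3.0 (R 4.3.3) with 2000 variable genes, 20 principal components, 20 neighbours and resolution 0.8, after serotonin receptor genes were removed. Clusters were named from 3 or more markers at 0.25 or more of their highest level; the cut between neurons (score of 0.5 or more) and mixed cells was set after the data were seen. Neurons were gated in this order by raw UMIs, and the first gate passed gave the class: Nppb 10, Mrgpra3 5, Mrgprd 5, the sum of P2ry1, Cd34 and C1ql4 15, Trpm8 3, then Nefh 20, Calca 100 and Sstr2 3. Counts were summed by class and expressed per 1000000. Shares have Clopper-Pearson intervals, CPM values exact Poisson intervals and ratios conditional binomial intervals, all at the 95% level. They were checked on simulated data. Ratios needed at least 50 UMIs over both libraries for the count past 1.5-fold. For equal depth, neurons were thinned to 5000 UMIs, while classes and the Calca gate were set on unthinned UMIs. The 27 shared barcodes were kept as separate cells. Scrublet scored 1.82% of control and 0.792% of CFA cells above 0.25 (3 and 1 of them neurons), and 1 neuron in each library passed the gates of 2 classes; both kinds were kept and left out as alternatives. Named genes were the members, the other serotonin receptors, genes of serotonin handling, receptor partners, nociceptor peptides, mast cell and platelet markers, and the 3 genes most like each member with at least 100 UMIs in the neurons of each library, among genes with at least 200, though not every such gene is reported here. The members and lists were chosen with earlier results of these data known. Alternatives changed the filters, gates, weights, thinning, centring and totals, and 2 settings (leaving out neurons with 2 gates, and the highest neuron) were added after the data were seen. Python 3.11.15, numpy 2.4.6, scipy 1.17.1, pandas 2.3.3, scanpy 1.11.5 and matplotlib 3.10.9 were used.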

Additional observations from a re-analysis of the deposited data

Results flagged for a closer look

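The log2 ratio of CFA over control for Htr3a pointed in opposite directions in different neuron classes. It was 1.09 in Mrgpra3 neurons (45 control and 13 CFA cells) and 0.224 in Sstr2- peptidergic C neurons (251 and 121), but -1.24 in Trpm8 neurons (49 and 25) and -0.786 in A-fibre neurons (19 and 10). Each interval from counting error excludes 0. With gate minimums doubled, however, the ratios in Mrgpra3, Trpm8 and Sstr2- peptidergic C neurons changed sign. The difference between the classes was not tested, since each condition had 1 library.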

How the results depend on the processing

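A total of 62 results were recomputed under alternative settings, which gave 611 values. Of these, 539 stayed within the counting interval of the result, 67 fell outside it and 5 turned its direction. A turn was counted only for ratios whose interval excluded 0. No replicate could be left out, and p-values were not used, because each condition had 1 library. No paired analysis was possible because the result comes from no test and each condition has 1 library. Direction turned for the Htr1a ratio in all neurons with equal class weights (-0.124), for the Htr3a ratio in Sstr2- peptidergic C neurons with gate minimums doubled (-0.037) or every cell weighted equally (-0.045), and with gate minimums doubled in Trpm8 (1.42) and Mrgpra3 neurons (-0.095). With gates doubled, a neuron that misses one gate can fall into a later class, so the makeup of the classes changes. The causes of these turns were not tested.

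Htr1b in control Sstr2- peptidergic C neurons was at 51.7 CPM with gate minimums doubled. Htr3a in that class was at 111 CPM (control) with gates doubled, at 83.4 and 89.5 CPM (control and CFA) with gates halved, at 122.1 and 122.3 CPM with gates on UMIs per 10000, at 78.6 and 76.2 CPM with every cell weighted equally, and at 96.1 CPM (CFA) without its highest neuron. With neurons thinned to 2000 UMIs the share with Htr1b in Sstr2+ neurons was 10.5% and 11.1%, with Htr1d in control C-LTMRs 2.78%, with Htr1f in Nppb/Sst neurons 16.7% and 18.2%, and with Htr3a in control Sstr2- neurons 11.6%, as lower depth gives fewer positive cells. The Calca-high share of control Htr1d neurons was 0.0% at 2 or more UMIs. That of control Htr1f neurons was 0.0% after thinning to 5000 UMIs, with the Calca gate on unthinned UMIs. That of Htr3a neurons was 61.2% with gates doubled, 78.5% with gates halved and 78.5% at 2 or more UMIs for control neurons, and for CFA neurons 70.8% both with gates halved and on UMIs per 10000. In all neurons, weighting every cell equally gave log2 ratios of 0.063 for Htr1a, 1.13 for Htr1f and -0.24 for Htr3b, and equal class weights gave 0.36 for Htr1f and -0.30 for Htr3b.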
